A study of Mus musculus with 6 samples.

Results

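The myosin light chains and myosin-binding proteins were examined in the gastrocnemius, a mixed calf muscle in which fast fibres predominate. Members were the 8 genes Myl1, Myl2, Myl3, Myl4, Mylpf, Mybpc1, Mybpc2 and Mybph, found as the non-control probes whose RefSeq accession maps to one of these mouse symbols. They had 11 of the 55681 probes of the array, and all 8 passed the filter on dim probes, among 20900 genes tested. Whole-muscle total RNA of 3 young male mice (13 weeks of age) and 3 aged male mice (26 months of age) was labelled with Cy3 and hybridized to 1 single-colour Agilent array per mouse. The mice were C57BL/6J, with no other treatment or allele given, and whole-muscle RNA pools every fibre type with the vessels, nerve, fat and immune cells between the fibres.

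Each myosin heavy chain carries 1 essential and 1 regulatory light chain on its lever arm. The essential light chain stiffens the arm and tunes shortening speed, whereas the regulatory light chain is phosphorylated by a calcium-calmodulin-dependent kinase, which raises force at low calcium. Fast fibres use Myl1 (essential) and Mylpf (regulatory), and slow fibres, like the cardiac ventricle, use Myl3 and Myl2. Myl4 is the essential chain of embryonic muscle and of the atrium. Myosin-binding protein C lies in stripes along the thick filament and governs how readily the heads reach actin. Mybpc1 encodes its slow and Mybpc2 its fast skeletal form, and Mybph encodes the smaller relative, myosin-binding protein H.

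No member passed the threshold between aged and young mice (0 of 8 at a limma adjusted p under 0.05, against 0.254% of all genes, 53 of 20900). The mean signal was higher in aged mice for 3 members (Mylpf, Mybph and Myl4) and lower for 5, with a median log2 change of −0.13, beside −0.06 over all genes. Of all 20900 genes, 9009 had a higher and 11891 a lower mean. An unadjusted p under 0.05 was reached by Myl3 (lower) and Myl4 (higher), 25% of the members against 14.4% of all genes. The groups did not overlap for Myl3 (aged below young) and Mylpf (aged above young), again 25% of the members, against 21.8% of all genes. These shares over 8 genes differ from the background by 1 gene or less. With 3 mice against 3, an exact two-sided permutation test of a single gene cannot go below p = 0.1.

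The promoters of Myl3, Myl4 and Mybph are shown because these genes stood for the 3 patterns among the members: a lower slow light chain, a higher embryonic light chain, and a binding protein that was high in some aged mice only. Each run holds the 250 bases before the annotated start in RefSeq GRCm38.p6, on the plus strand, 5′ to 3′, and capitals mark motif matches. The windows are chr9:110763428-110763677 for Myl3, chr11:104550413-104550662 for Myl4 and chr1:134193198-134193447 for Mybph.
Myl3: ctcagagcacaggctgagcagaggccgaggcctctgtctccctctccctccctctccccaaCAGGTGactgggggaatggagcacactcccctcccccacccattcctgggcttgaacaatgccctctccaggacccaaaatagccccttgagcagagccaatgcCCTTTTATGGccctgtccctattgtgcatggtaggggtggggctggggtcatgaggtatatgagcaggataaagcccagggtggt
Myl4: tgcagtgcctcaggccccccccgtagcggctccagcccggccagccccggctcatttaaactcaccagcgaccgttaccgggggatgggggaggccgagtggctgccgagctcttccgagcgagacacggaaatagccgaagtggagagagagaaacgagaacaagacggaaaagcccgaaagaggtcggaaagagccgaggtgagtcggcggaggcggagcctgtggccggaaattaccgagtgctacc
Mybph: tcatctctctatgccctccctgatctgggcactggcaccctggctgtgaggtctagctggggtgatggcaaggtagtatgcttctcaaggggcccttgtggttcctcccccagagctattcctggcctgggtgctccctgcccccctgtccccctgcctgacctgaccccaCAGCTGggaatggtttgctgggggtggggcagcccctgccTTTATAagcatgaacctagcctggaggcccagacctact

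The capitals in the Myl3 window mark an E-box, the CANNTG motif read by myogenic factors such as MyoD and myogenin, whose first base (CAGGTG) lies 189 bases before the start, and a CArG box, the motif of serum response factor (CCTTTTATGG), 85 bases before it. In the Mybph window they mark the E-box form CAGCTG at 79 bases and TTTATA, the TATA box TATAAA on the other strand, at 39 bases. The Myl4 window held none of the 5 motifs searched. Over both strands of all 32851 RefSeq windows of this length, 66.2% held CANNTG, 13% CAGCTG, 1.47% a CArG box, 12.4% TATAAA and 2.92% the MEF2 consensus. CAGCTG, a subset of CANNTG, also occurred in windows of Myl1, Mylpf, Myl2 and Mybpc1, and the MEF2 consensus in the window of no member. A match describes letters in the sequence only. Binding was not measured.

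Signals are given as log2 of the processed intensity minus the 75th percentile of the same array, so that 1 unit is a doubling and 0 is the 75th percentile. Levels are compared between mice and not between genes, because probes differ in brightness.

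On each array, between 48.7% and 53.8% of probes were well above background, 161 to 212 spots were flagged and 0 probes were saturated. The 75th percentile of the signal ran from 210 to 311. All 6 arrays were on 1 slide and read in 1 scan. The array of aged mouse 1 stood apart. It had the highest share of probes above background (53.8%), and 114 of its genes lay at least 2 log2 units above both other aged mice, against 3 to 25 genes on the other arrays, each set against its own group. A further 106 lay as far below, against 10 to 95 elsewhere. Without this mouse the log2 changes (aged minus young) of the members kept their direction, at −0.59 for Myl3, 0.67 for Myl4, −0.0067 for Myl1, 1.35 for Mylpf, −0.54 for Myl2, −0.30 for Mybpc1, −0.059 for Mybpc2 and 1.61 for Mybph. No member passed the limma threshold without it. The number of mice limits the precision of every value.

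**Figure D1:**
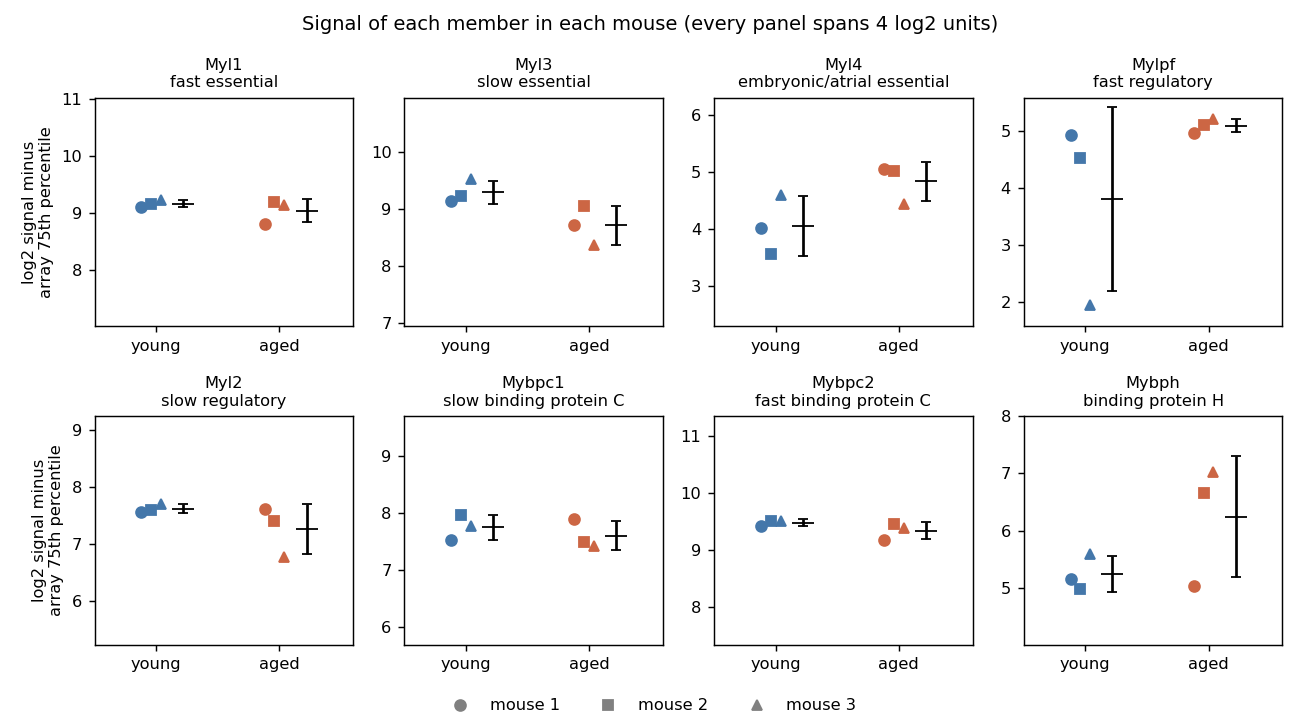
Signal of the 8 members in the 3 young (blue) and 3 aged (orange) mice, as log2 signal minus the 75th percentile of the array. Symbols are mice 1 to 3, bars give the mean ± SD, and every panel spans 4 log2 units. Myl3 was lower in each aged mouse, Mybph was high in aged mice 2 and 3, and Mylpf was low in young mouse 3.

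Among the essential light chains, the slow form Myl3 had the lower mean in aged mice and the embryonic form Myl4 the higher one, while the fast form Myl1 was close to level. In young mice 1 to 3 the Myl3 signal was 9.13, 9.22 and 9.52, against 8.72, 9.04 and 8.37 in the aged mice, in the same order of numbers. Every aged mouse lay below every young mouse, with aged mouse 3 lowest. The young mean was 9.29 ± 0.20 and the aged mean 8.71 ± 0.34 (SD, n = 3 per group), a log2 change of −0.58 (SE 0.22, 95% confidence interval −1.11 to −0.052) or 0.668 times the young level. The limma adjusted p was 0.316 (unadjusted 0.0356). Relative to the young mean, aged mice 1 to 3 held 0.674, 0.840 and 0.527 of the Myl3 signal. Aged mouse 2 was thus nearest to the young mice, and the mean change was −0.41 without aged mouse 3.

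Myl4 was 4.02, 3.56 and 4.61 in the young and 5.05, 5.03 and 4.44 in the aged mice. Aged mice 1 and 2 exceeded all young mice, whereas aged mouse 3 lay within the young range. The means of 4.06 ± 0.53 (young) and 4.84 ± 0.35 (aged) gave a log2 change of 0.78 (SE 0.31, interval 0.035 to 1.52), 1.71-fold, with a limma adjusted p of 0.331 (unadjusted 0.0425). Without young mouse 2, the lowest of its group, the change was 0.52.

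Myl1, which yields the long and short fast essential chains from separate promoters, was 9.11, 9.16 and 9.23 in young and 8.81, 9.19 and 9.13 in aged mice. Aged mouse 1 was the lowest of all, and aged mice 2 and 3 lay inside the young range. The log2 change of −0.12 (SE 0.17, interval −0.52 to 0.28, adjusted p = 0.761 by limma) turned to 0.047 under quantile normalization. A further probe of Myl1, named for another transcript, had a flagged spot in aged mouse 1 and was left out of the fit. It read 7.85, 7.90 and 7.64 in young mice and 7.02 and 7.74 in aged mice 2 and 3.

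Of the regulatory light chains, the fast form Mylpf had the largest change of the 8 members, and this value rested on a single young mouse. In the young mice Mylpf stood at 4.93, 4.52 and 1.95, and in the aged mice at 4.97, 5.10 and 5.20. Young mouse 3 lay 2.57 below the lower of the other 2 young mice, while the aged mice differed little (SD 0.12, against 1.61 in young mice). The log2 change was 1.29 (SE 0.73, interval −0.45 to 3.02, 2.44-fold, adjusted p = 0.458 by limma), and 0.36 without young mouse 3. As intensities, the signals were 9152.5, 5942.9 and 812.1 in young and 9738.0, 9801.1 and 9957.4 in aged mice.

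The second Mylpf probe, named for a predicted transcript, read −0.83, −1.33 and −3.34 in young mice and −0.72, −0.68 and −0.98 in aged mice. Its groups overlapped, since aged mouse 3 lay below young mouse 1, so the separation of the groups was seen with the first probe only. In young mouse 3 the second probe was not well above background. Both probes of Mylpf were therefore low in that mouse, in which 95 of 20900 genes (0.455%) lay at least 2 log2 units below both other young mice, Mylpf being the only member among them. The part of the array in the low Mylpf value was not tested.

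Myl2, the slow regulatory chain, was 7.55, 7.59 and 7.70 in young and 7.61, 7.39 and 6.76 in aged mice. Aged mouse 1 lay within the young range and aged mice 2 and 3 below it. The young mice were tight (7.61 ± 0.077), and the aged mice were not (7.25 ± 0.44). The log2 change was −0.36 (SE 0.24, interval −0.94 to 0.21, adjusted p = 0.526 by limma), and −0.11 without aged mouse 3, which held 0.553 of the young mean. Myl3 and Myl2 had their lowest value in the same mouse.

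The myosin-binding proteins C were nearly level. The slow form Mybpc1 was 7.53, 7.97 and 7.77 in young and 7.89, 7.49 and 7.42 in aged mice, with aged mouse 1 inside the young range and the other 2 just below it. Its log2 change was −0.15 (SE 0.20, interval −0.63 to 0.33, adjusted p = 0.758 by limma). The other Mybpc1 probe, for a different transcript, read 5.47, 5.54 and 4.87 in young and 5.93, 4.87 and 5.11 in aged mice, a change of 0.010. The fast form Mybpc2 was 9.42, 9.52 and 9.51 in young and 9.17, 9.47 and 9.39 in aged mice. Its log2 change of −0.14 (SE 0.16, interval −0.52 to 0.23, adjusted p = 0.694 by limma) was 0.055 under quantile normalization.

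Mybph showed the widest spread among aged mice. The young mice had 5.15, 4.97 and 5.58, and aged mice 1 to 3 had 5.04, 6.65 and 7.03. Aged mouse 1 lay within the young range, whereas aged mice 2 and 3 were at 2.67 and 3.48 times the young mean. The SD was 0.31 in young and 1.06 in aged mice, beside medians of 0.23 and 0.27 over all genes. The log2 change was 1.0 (SE 0.51, interval −0.20 to 2.21, 2.01-fold, adjusted p = 0.418 by limma). It was 1.61 without aged mouse 1 (adjusted p = 0.058, the lowest of a range of 0.058 to 0.81 over the 18 alternatives) and 0.61 without aged mouse 3.

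Aged mouse 1 also differed from the other aged mice in its place on the slide. It shared row 1 with the 3 young mice, and aged mice 2 and 3 were in row 2. Within row 1 the log2 difference of Mybph, aged mouse 1 minus the young mean, was −0.20, against 1.61 for the mean of aged mice 2 and 3. Row and mouse cannot be told apart here. The row 1 difference had the sign of the overall change for Myl3 (−0.57), Myl4 (0.99), Mylpf (1.17), Myl1 (−0.36), Mybpc2 (−0.31) and Myl2 (−0.0056), and the opposite sign for Mybpc1 (0.14) and Mybph.

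**Figure D2:**
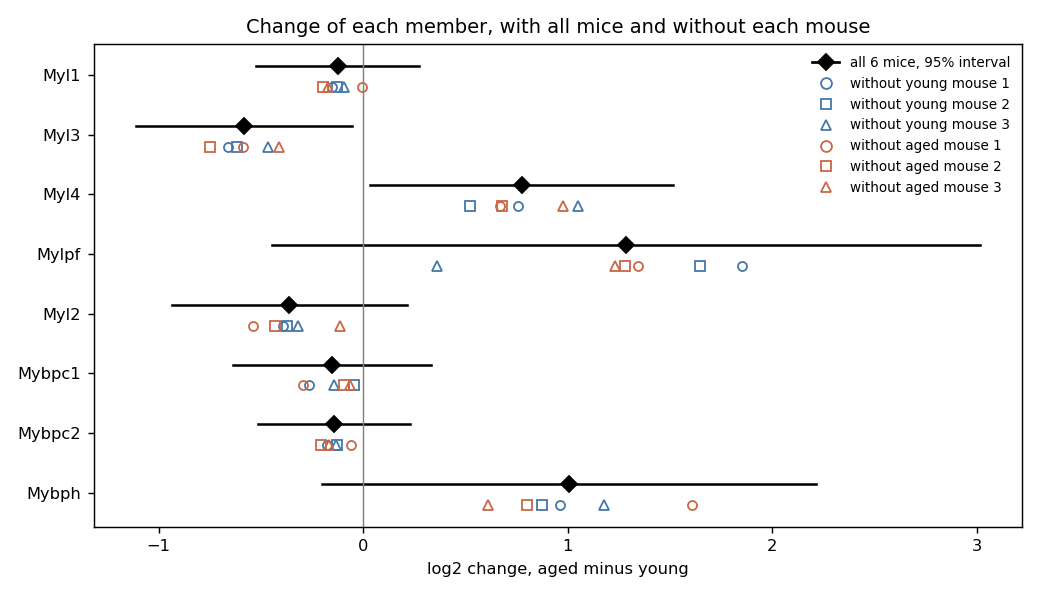
Log2 change (aged minus young) of each member with all 6 mice (black diamonds, lines are 95% confidence intervals) and without each mouse in turn (open symbols, blue for young and orange for aged). The Mylpf change dropped to 0.36 without young mouse 3 and the Mybph change was 1.61 without aged mouse 1, while Myl3 stayed between −0.75 and −0.41.

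Leaving out any 1 mouse kept the sign of all 8 changes. The Myl3 change ranged from −0.75 to −0.41, the Myl4 change from 0.52 to 1.05, the Myl2 change from −0.54 to −0.11 and the Mybph change from 0.61 to 1.61. The brightest genes were shifted as a group: the 406 genes with a mean above 8 had a median log2 change of −0.16, and a median of −0.32 in aged mouse 1. Myl1, Myl3 and Mybpc2 belong to these, and the changes of Myl1 and Mybpc2 were smaller than that median, whereas the −0.58 of Myl3 was larger. In bulk muscle RNA, fewer slow fibres and less Myl3 RNA per slow fibre cannot be told apart.

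The fast and slow partners were then compared within each array, where the scaling cancels, as the slow minus the fast log2 signal relative to the young mean. Myl3 minus Myl1 was −0.10, −0.066 and 0.17 in young mice and −0.21, −0.27 and −0.89 in aged mice. All aged mice lay below all young mice, though aged mice 1 and 2 by little. The mean difference was −0.46, with an SD of 0.15 in young and 0.38 in aged mice, and it was −0.24 without aged mouse 3. Myl2 minus Mylpf was −1.19, −0.74 and 1.93 in young and −1.17, −1.52 and −2.25 in aged mice, and the groups overlapped. Its mean of −1.65 was −0.68 without young mouse 3, in which Mylpf was low. Mybpc1 minus Mybpc2 was −0.16, 0.18 and −0.012 in young and 0.45, −0.24 and −0.23 in aged mice, with a mean of −0.0077. Only the essential pair had no overlap between the groups, and Myl3 alone had none either. Among all single genes, 21.8% had no overlap. No test was applied to these differences.

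**Figure D3:**
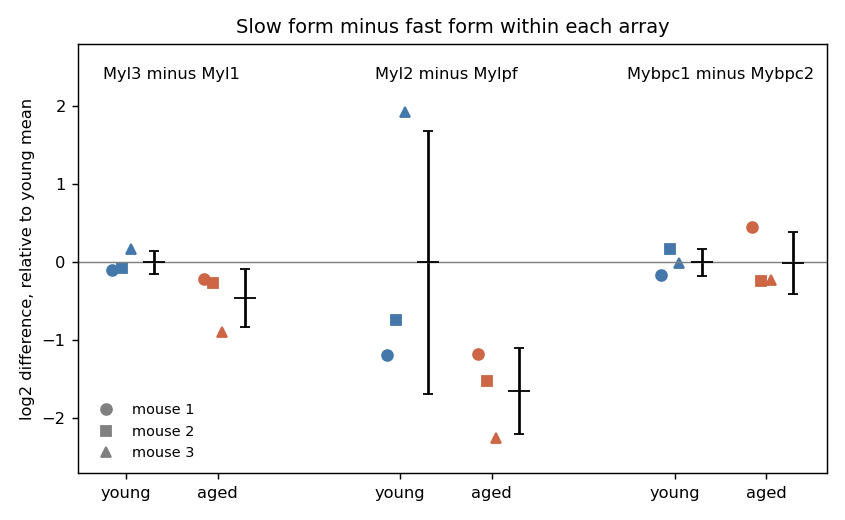
Slow minus fast log2 signal within each array, relative to the young mean, for the essential chains (Myl3 minus Myl1), the regulatory chains (Myl2 minus Mylpf) and the C proteins (Mybpc1 minus Mybpc2). Blue points are young and orange points aged mice, with mean ± SD in black. Only the essential chains showed no overlap between the groups (aged −0.21, −0.27 and −0.89).

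The other light chains and close relatives of the members were mixed. Of 9 genes, 6 could be tested, and 2 were higher and 4 lower in aged mice, 0 past the limma threshold and 2 at an unadjusted p under 0.05 (median log2 change −0.10). The 3 left out, Myl7 (atrial regulatory chain), Mybpc3 (cardiac protein C) and Mybphl, were well above background on 0 arrays. Myl12a, a regulatory light chain of non-muscle myosin, was 6.92, 6.99 and 7.04 in young and 7.59, 7.34 and 7.32 in aged mice. All aged mice were above the young ones, with a change of 0.43 (adjusted p = 0.298 by limma). Myl6b changed by −1.09 (adjusted p = 0.369) and Myl10 by −1.12 (adjusted p = 0.330), both with overlapping groups and both lowest in aged mouse 3. The counts of this list and of those below stand beside 11891 of 20900 genes with a lower mean in aged mice. An unadjusted limma p under 0.05 was reached by 14.4% of all genes.

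Of 10 genes of light chain phosphorylation, 8 were tested, 1 with a higher and 7 with a lower mean in aged mice, 0 past the threshold and 2 at an unadjusted p under 0.05, both lower (median −0.16). Mylk3 was well above background on at most 2 arrays and Mylk4 was not matched. Mylk2, the skeletal muscle kinase of the regulatory light chain, was 8.31, 8.17 and 8.23 in young and 7.79, 7.64 and 7.14 in aged mice. The groups were apart, and aged mouse 3 was again the lowest. Its change was −0.72 (adjusted p = 0.225 by limma). Mylk, the kinase of smooth and non-muscle cells, also lay lower in each aged mouse (−0.44, adjusted p = 0.327). Ppp1r12a, the targeting subunit of myosin phosphatase, changed by 0.21 (adjusted p = 0.640).

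All 12 genes of the thick filament and M-band were tested, with 6 higher and 6 lower in aged mice, 0 past the threshold, 3 at an unadjusted p under 0.05 and a median of 0.031. Myom3, a myomesin of the M-band, was 5.11, 5.69 and 5.56 in young and 6.97, 6.11 and 5.85 in aged mice, without overlap (0.86, adjusted p = 0.309 by limma). Obsl1, an obscurin-like M-band protein, changed by 0.71 (adjusted p = 0.331). Hsp90aa1, a chaperone that folds myosin, was 2.33, 1.92 and 2.77 in young and 1.77, 4.29 and 4.52 in aged mice (1.19, adjusted p = 0.483). As for Mybph, aged mouse 1 was low and aged mice 2 and 3 were high.

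Of the 8 sarcomeric myosin heavy chains, the partners of the light chains, 1 was higher and 7 were lower in aged mice, with 0 past the threshold, 2 at an unadjusted p under 0.05 and a median of −0.27. The higher one was Myh3, the embryonic heavy chain, at 0.30, 0.52 and 0.89 in young and 2.77, 2.07 and 1.87 in aged mice. It had a change of 1.66 with no overlap (adjusted p = 0.0970 by limma). Myh7b changed by −0.88 (adjusted p = 0.285) and lay lower in every aged mouse, and Myh6 by −0.78 (adjusted p = 0.417). Heavy chain genes are near-identical over long stretches, so their probes may share signal. This was not tested, since probe sequences were not used here.

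**Figure D4:**
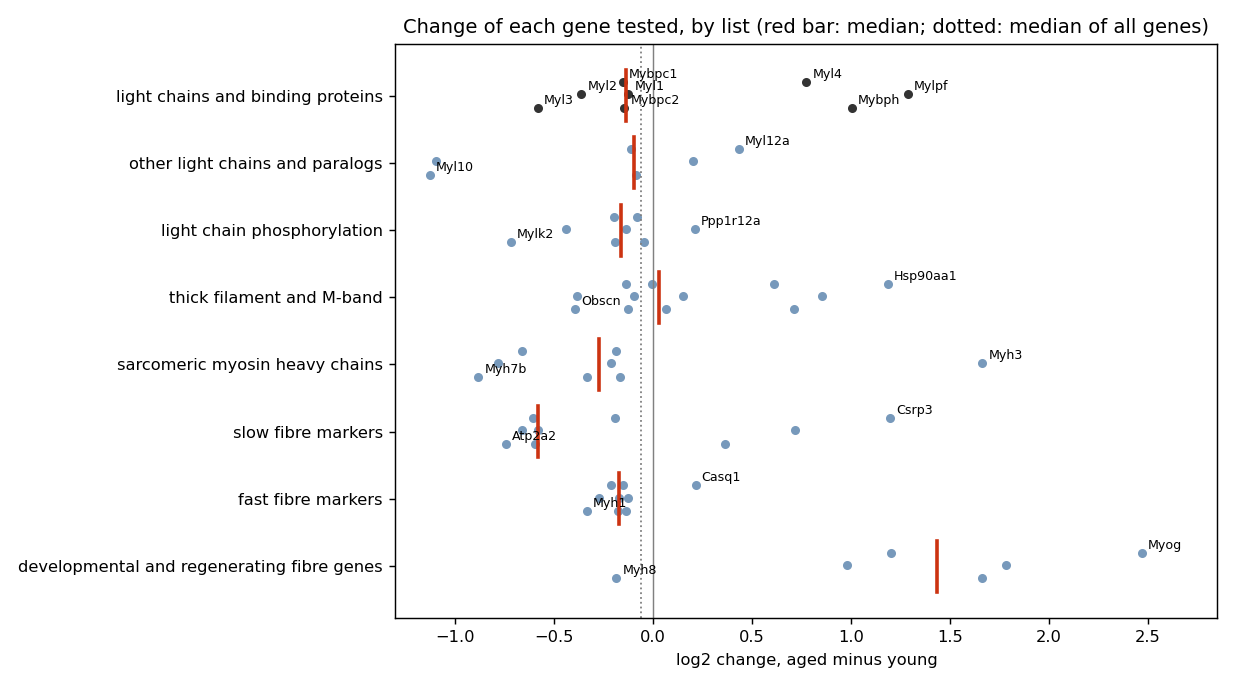
Log2 change (aged minus young) of every gene tested in each list, 1 point per gene, with the list median in red and the median of all genes (−0.06) dotted. Members are named, and the lowest and highest gene of the other lists. The slow fibre markers lay mostly below 0 (median −0.58), the fast fibre markers close to it (median −0.17), and the developmental genes mostly above it (median 1.43). The last median includes Chrng, which passed the filter on dim probes through the aged arrays only.

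The 9 slow fibre markers had a median log2 change of −0.58, with 6 lower, 3 higher, 0 past the threshold and 3, all lower, at an unadjusted p under 0.05. Over all genes, 11891 of 20900 were lower and 14.4% reached that unadjusted p, so the share of lower markers is near the background. Tnnt1, the slow troponin T, was 7.89, 8.15 and 8.23 in young and 7.73, 7.63 and 7.15 in aged mice, without overlap. Atp2a2, the slow calcium pump, also lay lower in each aged mouse, with a change of −0.74 (adjusted p = 0.231 by limma). Csrp3, the muscle LIM protein, and Ankrd2, a stretch-responsive ankyrin protein, went the other way as values, at 1.20 (adjusted p = 0.437) and 0.72 (adjusted p = 0.412). Myh7, the slow heavy chain that binds Myl3 and Myl2, was 8.15, 8.83 and 8.88 in young and 8.16, 8.19 and 7.54 in aged mice. As with Myl3 and Myl2, aged mouse 3 was the lowest. The median deviation of the slow markers from the young mean was −0.11, −0.43 and −0.90 in aged mice 1 to 3, and their summed level (log2 of the summed signals of the list) ran from 9.45 to 10 in young and from 9.07 to 9.89 in aged mice.

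Of 10 fast fibre markers, 9 were tested, 1 with a higher and 8 with a lower mean in aged mice and 0 past the threshold or at an unadjusted p under 0.05 (median −0.17). The 8 lower ones all had a mean signal above 8, and the 406 genes above 8 had a median log2 change of −0.16. The part of that shared shift in the fast markers was not tested. The summed level of the fast markers was 12.6 to 12.9 in young and 12.4 to 12.7 in aged mice. Myh1 changed by −0.33 (adjusted p = 0.458 by limma), Tnnt3, the fast troponin T, by −0.27 (adjusted p = 0.465), and Casq1, the fast calsequestrin, by 0.22 (adjusted p = 0.861). The changes of the fast members Myl1 and Mybpc2 lay near the median of these markers, and that of Mylpf above each of them. Casq1, at 6.81, 6.86 and 5.16 in young mice, was also lowest in young mouse 3. The other fast markers tested went the other way. Each was highest in young mouse 3 among the young mice, such as Myh4 at 8.95, 9.03 and 9.24. The median deviation of the fast markers from the young mean was −0.13, 0.0029 and 0.14 in young mice 1 to 3. Tnni2 could not be tested because of a flagged spot.

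Of the 6 developmental and regenerating fibre genes, 5 had a higher mean in aged mice and 1 (Myh8) a lower one, with 0 past the threshold, 4, all higher, at an unadjusted p under 0.05 and a median of 1.43. Myog, the myogenic factor induced in denervated muscle, was −0.52, −0.22 and 0.04 in young and 1.12, 2.20 and 3.39 in aged mice. It had no overlap and a change of 2.47 (adjusted p = 0.149 by limma). Chrng, the fetal acetylcholine receptor subunit, was well above background on 0 young and 3 aged arrays, and no fold is given. It passed the filter through the aged arrays only, so its higher mean was favoured by the filter and lends no support. The counts and medians of this list include it. The other genes at an unadjusted limma p under 0.05 were Myog, Myh3 and Ncam1. The median deviation of this list was 1.35, 1.32 and 1.38 in aged mice 1 to 3, but its genes were not alike across these mice. Myod1, at 1.13, 2.32 and 3.67 in aged mice 1 to 3, rose in that order as Myog did. Myh3, at 2.77, 2.07 and 1.87, fell in the same order, as did Ncam1. Of the other genes, Myh8 was lowest in aged mouse 1 and Chrng highest in aged mouse 2. Myod1 in aged mouse 1 lay within the young range. The summed level of the list, led by Myh8, was 9.20 to 9.58 in young and 8.96 to 9.40 in aged mice. Myl4 was highest in aged mice 1 and 2 and Mybph in aged mice 2 and 3.

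**Figure D5:**
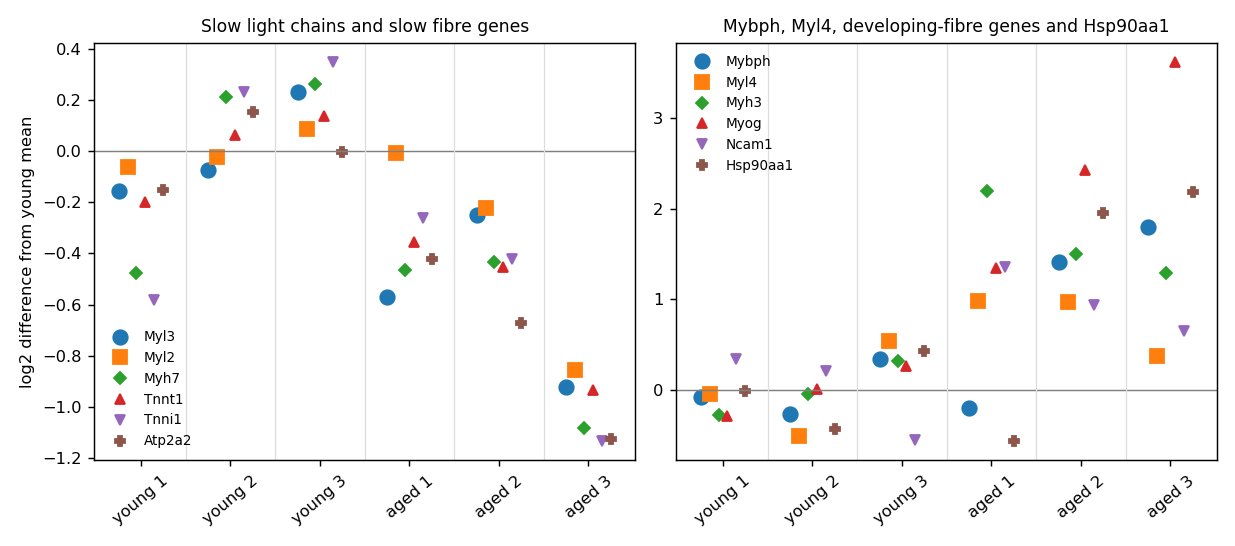
Log2 difference from the young mean in each mouse for the slow light chains Myl3 and Myl2 with slow fibre genes (left) and for Mybph and Myl4 with genes of developing fibres and the chaperone Hsp90aa1 (right). Each symbol is a gene, and columns are mice. The plotted marker genes are a selection and do not stand for their whole lists. Of the slow markers, Csrp3 (1.20), Ankrd2 (0.72) and Casq2 (0.37), with higher means in aged mice, are not plotted, nor are Tnnc1 and Tpm3. Of the developmental genes, Myh8 (−0.18), Chrng and Myod1 are not plotted. Aged mouse 3 had the lowest Myl3 and Myl2 (left), and aged mouse 1 lacked the high Mybph and Hsp90aa1 of aged mice 2 and 3 (right).

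Skeletal muscle markers (Acta1, Ckm, Des, Pygm and Mb) were well above background on all arrays. Myl4, Myl3 and Myl2 are also cardiac genes. Of 8 cardiac markers, Nppb, Myl7 and Ryr2 were well above background on 0 arrays. The 5 tested, Tnni3 included, had a median of 0.57, with 4 higher and 1 lower in aged mice. Nppa (0.39) and Tnnt2 (0.57) were well above background on all arrays, with overlapping groups. The summed cardiac level of 3.49 to 4.56 in young and 6.26 to 7.95 in aged mice was led by Sln, sarcolipin, which skeletal muscle also makes (3.03, adjusted p = 0.101 by limma). Of the other cardiac genes, Myh6 overlapped between the groups, as did Tnni3, which was well above background on 1 young and 2 aged arrays only and is given no fold.

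Markers of other cells also differed in mean between the groups, most of them short of the limma threshold. Of 6 macrophage markers tested, 5 were higher in aged mice, with a median of 0.55 and a summed level of 4.34 to 4.46 in young and 4.53 to 4.83 in aged mice. They included Cd68 (1.08, adjusted p = 0.175 by limma), C1qb (0.89, adjusted p = 0.125) and Adgre1 (0.64, adjusted p = 0.231), and Cd163 was well above background on 0 arrays. Of 6 Schwann cell markers, 5 were lower (median −0.93), and Prx, the periaxin of myelinating Schwann cells, was the only gene of all lists past the threshold (−1.29, adjusted p = 0.0428). Mag, a glycoprotein of myelin, was at −0.94 (adjusted p = 0.0837), while the summed Schwann level overlapped, at 4.49 to 5.39 in young and 4.34 to 5.25 in aged mice.

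All 4 erythrocyte markers tested had lower means (median −1.14), with Hba-a1 at −1.20 (adjusted p = 0.196 by limma), Alas2 at −1.26 (adjusted p = 0.271) and Hbb-b1 at −1.08 (adjusted p = 0.317). Their summed level was 7.62 to 8.37 in young and 6.34 to 7.29 in aged mice, lowest in aged mouse 3. Of 5 smooth muscle markers tested, 4 were lower (median −0.26, summed level 6.12 to 6.88 in young and 6.02 to 6.25 in aged mice), led by Myh11 (−0.52, adjusted p = 0.333), Smtn (−0.48, adjusted p = 0.464) and Tagln (−0.26, adjusted p = 0.580). The 4 adipocyte markers tested were all lower (median −0.23, summed level 6.56 to 6.73 in young and 6.24 to 6.59 in aged mice), with Plin1 at −0.48 (adjusted p = 0.524), Adipoq at −0.24 (adjusted p = 0.647) and Fabp4 at −0.22 (adjusted p = 0.571). The part of any of these cells in the values of the light chains and binding proteins was not tested.

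The genes most like each member over the 6 arrays were found by Pearson correlation of the log2 signals among 12676 genes well above background on all arrays. The values share the arrays and their scaling, and with 6 points and so many genes they are a description only. Nearest to Myl3 were Chadl (0.998), Mpc1 (0.997) and Cyb561d1 (0.995), with changes of −0.55, −0.24 and −0.47. Nearest to Myl4 were Lrrn3 (0.994), Epb41l1 (0.989) and Ppargc1b (0.987). Nearest to Mybph were Pdia6, Pes1 and Hsp90aa1 (0.992 each), with changes of 0.70, 1.11 and 1.19. Mylpf was most like Ykt6, 9030619P08Rik and Prrc1 (0.997 each), Myl2 like Drosha (0.995), Eif5 (0.994) and Acr (0.993), and Myl1 like Sh3bgr (0.998), Txnrd3 (0.996) and Ndufc1 (0.996). Mybpc1 was most like Xpo4 (0.998), Sdsl (0.998) and Inhba (0.996), and Mybpc2 like Anapc2 (0.989), Mmp15 (0.988) and Mrpl39 (0.987).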

How the data were processed

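Total RNA of the gastrocnemius of 3 young and 3 aged mice was measured on single-colour Agilent arrays. The deposited scanner tables hold, for each spot, the processed intensity on a linear scale, which the authors' Feature Extraction software had corrected for background and for trends across the array. The version was 9.5 in the submitters' processing notes and 11.0.1.1 in the file headers. No scaling between arrays had been applied, and the methods state neither normalization nor test. Values of the deposited series matrix were identical (largest log2 difference 0).

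Control spots and flagged spots were left out, spots of a probe were averaged as log2 intensity, and each array was scaled to its 75th percentile. Accessions were matched without version to RefSeq (GRCm38.p6), which named 28341 of 55681 probes. A probe was kept when well above background on at least 3 of 6 arrays. The brightest kept probe, saturated on no array, represented its gene. Aged mice were set against young mice in limma 3.58.1 (lmFit, eBayes) under R 4.3.3. Adjusted p-values (Benjamini-Hochberg over 20900 genes) under 0.05 counted as past the threshold. The code was tested on simulated data. Samples numbered 1 to 3 were taken as separate mice, and p-values measure the spread between them.

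The members and all gene lists were chosen with earlier results of these data known, so no p was adjusted over a list alone and lists are described by counts and medians. Named genes were the 8 members, the 3 list genes with the largest absolute change or past the threshold, further genes that define a list, and the 3 genes most correlated with each member. Some genes under this rule are not reported here. Some list genes (Tnnt1, Myh7, Myh8, Nppa, Tnnt2 and, in a plot, Tnni1 and Ncam1) were added after their values were seen. The alternatives were normexp background correction (offset 50), quantile, median and detected-probe scaling, other filters, the mean of a gene's probes, saturated probes, the series matrix, a variance trend, slide row and replicate number as blocks, and leaving out each mouse.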

Additional observations from a re-analysis of the deposited data

How the results depend on the processing

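No member passed the threshold under any of the 18 alternatives. Of the recomputed changes of the members, 140 kept their direction and 4 did not. Many of the 140 could not differ. The 2 other filters on dim probes, the saturated probes, the series matrix, the variance trend and the replicate block left every member's change as it was. These alternatives say nothing about the stability of direction. The exceptions were Myl1 (0.047) and Mybpc2 (0.055) under quantile normalization, and Mybpc1 (0.14) and Mybph (−0.20) with the slide row as a block, which leaves only aged mouse 1 against the young mice. Over all genes, 53 passed the threshold, against 8 without a filter on dim probes, 35 where each probe had to be well above background on all 6 arrays, 5 with the replicate block, and 1 to 199 when 1 mouse was left out (9, 8 and 8 without young mice 1 to 3, and 199, 9 and 1 without aged mice 1 to 3). The other alternatives gave 41 to 74. Of the genes past the threshold, 77.4% were higher in aged mice. The share ranged from 53.7% with the slide row as a block and 53.8% without aged mouse 1 to 100% with the replicate block, without a filter on dim probes and without young mice 1, 2 or 3 or aged mouse 3. It was 61.9% after median scaling, which moved the median change of all genes from −0.06 to −0.21, and 63.3% after normexp correction. The values showed no pairing by replicate number. Same-numbered mice had correlations of −0.062, −0.27 and 0.028 in their deviations from the group means, and 0 of 6 mice correlated best with their own number. The labels give a running number only, so pairing in handling cannot be judged from them. Brightness over background limits the second Mylpf probe, which was not well above background in young mouse 3.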
